A study of Mus musculus with 16 samples.

Results

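Sebaceous glands sit beside the hair follicle and release sebum, the oil that coats hair and skin. Their cells, the sebocytes, fill with lipid and burst, and making sebum takes enzymes that lengthen, desaturate and hydroxylate fatty acids, reduce them to alcohols and join alcohol and acid into wax esters. The genes described here are 10 of this kind: Elovl3, Scd1, Scd3, Fa2h, Far2, Awat1 and Awat2 encode such enzymes, Mgst1 a microsomal glutathione transferase, Mc5r the melanocortin receptor of sebocytes, and Krt79 a keratin of the duct that leads from gland to follicle. They were given as a list of symbols, and all 10 were found among the 23930 targets counted. The list was drawn up with the counts of these same libraries known. Differences between the groups in these 10 genes are therefore described, with their errors. Where the fit over all genes places some of the 10 past a threshold, their number is stated for completeness and is not evidence for them.

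RNA was measured in whole skin of mice aged 12 weeks, with 4 mice in each of 4 groups. All 16 mice carried Zc3h12a(loxP/loxP), a floxed gene for MCPIP1 (Regnase-1), an endoribonuclease that degrades inflammatory mRNAs. Control mice had no Cre. EKO mice had Krt14Cre(Tg/Wt), active in basal keratinocytes and in the follicle and gland cells that arise from them. MKO mice had LysMCre(Tg/Wt), active in macrophages and neutrophils, and EMdKO mice had both. Whole skin also holds cells that neither Cre reaches. Zc3h12a itself measured 19.4 to 30.3 CPM over control mice, 7.07 to 11.7 CPM over EKO mice, 17.1 to 35.01 CPM over MKO mice and 4.41 to 5.71 CPM over EMdKO mice, so the groups with Krt14Cre lay below the others. Libraries held 6962474 to 12086327 counts, and each of the 10 genes had at least 14 counts in every library. Values are CPM, read counts scaled to a library total adjusted by the TMM method, and group levels are mean ± SD with n = 4 mice. Each gene is read from an amplicon, so levels are compared between mice and not between genes. In bulk skin, fewer gland cells and less RNA per gland cell cannot be told apart.

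The list holds close relatives, and their sequences bear on how far counts can be assigned. Scd1 lies on chromosome 19 from 44394455 to 44407879 and Scd3 on the same chromosome from 44203269 to 44244016, with Scd2 and Scd4 between them, in the GENCODE annotation of GRCm38. The count files name no build. Of 1065 coding bases of Scd1 that align with Scd3, 974 (91.5%) are identical, and the longest identical run is 185 bases. The stretch below shows 180 coding bases of each from GENCODE transcripts, with the 8 bases that differ in capitals.
Scd1 coding bases 76 to 255: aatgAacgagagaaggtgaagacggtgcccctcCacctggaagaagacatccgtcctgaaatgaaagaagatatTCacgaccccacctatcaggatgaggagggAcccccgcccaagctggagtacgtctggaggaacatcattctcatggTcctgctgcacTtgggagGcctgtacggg
Scd3 coding bases 88 to 267: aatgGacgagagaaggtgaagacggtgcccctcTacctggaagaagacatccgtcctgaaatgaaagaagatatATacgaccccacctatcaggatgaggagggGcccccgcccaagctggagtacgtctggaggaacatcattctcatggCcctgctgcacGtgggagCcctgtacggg
Reads from such a stretch could be split or lost between these desaturase genes, and the amplicon positions are not stated in what was used here. The values of Scd1 and Scd3 are uncertain to that extent.

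Awat1 (chromosome X, 100572251 to 100578205) and Awat2 (100402221 to 100442717) are neighbours too, with Dgat2l6 between them, but their coding sequences are 66.1% identical over 833 aligned bases and share no identical run longer than 17 bases. In the stretch shown, 56 of 180 bases differ, again in capitals.
Awat1 coding bases 788 to 967: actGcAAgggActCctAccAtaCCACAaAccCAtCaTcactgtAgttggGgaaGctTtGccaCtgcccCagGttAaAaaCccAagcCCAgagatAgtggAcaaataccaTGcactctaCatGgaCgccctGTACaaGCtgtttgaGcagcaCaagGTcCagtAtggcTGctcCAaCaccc
Awat2 coding bases 650 to 829: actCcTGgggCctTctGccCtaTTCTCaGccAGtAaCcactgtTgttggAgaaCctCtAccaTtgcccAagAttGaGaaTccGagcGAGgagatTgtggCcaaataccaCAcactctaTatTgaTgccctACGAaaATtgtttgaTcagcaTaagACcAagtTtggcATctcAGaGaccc
These wax synthase genes thus differ far more than the desaturase pair. Scd1 with Scd2 was 90.3% identical and Scd3 with Scd4 84.6%, so the desaturase genes between them are close relatives too. Relatives of the other enzymes (Far2 with Far1, Mgst1 with Mgst2 and Mgst3, and Elovl3 with Elovl1, Elovl4, Elovl5 and Elovl6) were between 57.1 and 67.3% identical, with no identical run above 16 bases.

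Promoter windows from RefSeq (GRCm38.p6) were at hand for 6 of the 10 genes. The 250 bases before the start site are shown for 3 genes that ran closely together across the libraries, a fatty acyl-CoA reductase, a wax synthase and the duct keratin.
Far2, chr6:148047166-148047415, plus strand: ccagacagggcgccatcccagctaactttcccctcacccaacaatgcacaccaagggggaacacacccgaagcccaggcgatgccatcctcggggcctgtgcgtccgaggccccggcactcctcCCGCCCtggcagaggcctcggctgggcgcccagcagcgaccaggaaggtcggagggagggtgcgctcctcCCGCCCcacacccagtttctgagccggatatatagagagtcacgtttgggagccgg
Awat1, chrX:100571997-100572246, plus strand: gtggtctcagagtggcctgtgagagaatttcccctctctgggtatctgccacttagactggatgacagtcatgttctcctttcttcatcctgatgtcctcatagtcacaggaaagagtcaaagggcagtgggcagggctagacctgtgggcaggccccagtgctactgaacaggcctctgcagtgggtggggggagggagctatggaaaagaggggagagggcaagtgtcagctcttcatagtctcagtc
Krt79, chr15:101940325-101940574, minus strand: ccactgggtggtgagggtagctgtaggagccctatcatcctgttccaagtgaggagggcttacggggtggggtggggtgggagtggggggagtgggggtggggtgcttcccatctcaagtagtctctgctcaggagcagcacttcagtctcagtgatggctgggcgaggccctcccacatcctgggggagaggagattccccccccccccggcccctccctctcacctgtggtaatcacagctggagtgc
Capitals mark matches to a small set of motifs searched on both strands: the TATA box (TATAAA), the CCAAT box (CCAAT), the GC box (GGGCGG), the E-box (CACGTG), a sterol regulatory element (TCACNCCAC) and the direct repeat bound by nuclear receptors. Among all 32851 windows of this length, 32.7% held the GC box. Far2 holds the GC box in its reverse form at 2 places, and the windows of Awat1 and Krt79 hold none of the motifs. The sterol element was in 1.05% of windows and the direct repeat in 0.0335%, and neither was in any of the 8 windows of the 6 genes. These are matches of letters and not measured binding.

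**Figure D1:**
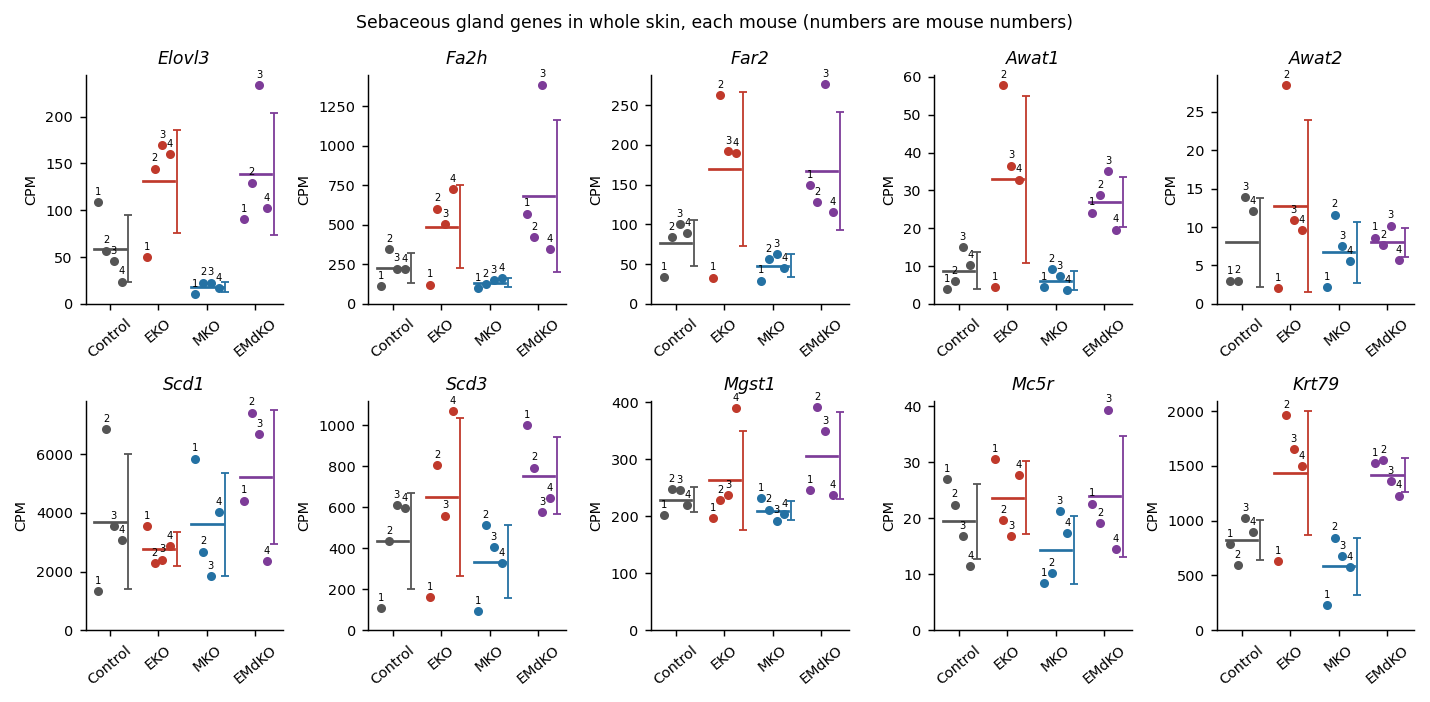
CPM of the 10 genes (vertical axes, linear from 0) in each of the 16 mice, by group (horizontal axes); points carry the mouse number, bars are group means and whiskers 1 SD (n = 4). For Far2, Fa2h, Awat1 and Krt79, every EMdKO mouse and EKO mice 2 to 4 lie above all controls, while EKO mouse 1 lies low.

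Most of the 10 genes averaged higher in skin of the groups with Krt14Cre than in control skin, and lower in MKO skin. Against control, 9 of 10 had a positive log2 fold change in EKO (median 0.73) and 9 of 10 in EMdKO (median 0.79), and 10 of 10 a negative one in MKO (median -0.47). Over all 13633 genes tested, 45.8, 47.1 and 50.2% were positive in EKO, EMdKO and MKO, with medians of -0.03, -0.02 and 0.00. The 3 comparisons share the control mice. Fa2h, Far2, Awat1, Elovl3 and Krt79 carried the pattern, whereas Scd1, Mc5r, Mgst1 and Awat2 had small or irregular differences.

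None of the 10 passed an adjusted p of 0.05 over all genes against control in EKO, MKO or EMdKO (edgeR quasi-likelihood test). In EKO that test called 0% of all genes. In MKO it called 0.0293% higher and 0% lower (0.0293% in all), and in EMdKO 0.022% higher and 0.00734% lower (0.0293% in all). At an unadjusted p under 0.05 the members counted 5, 1 and 5 in EKO, MKO and EMdKO, where 6.9, 9.58 and 8.16% of all genes did so. DESeq2 called Elovl3 in MKO, among 109 genes, and no other of the 10, and limma-voom called 0 of them. Since the genes were picked knowing these groups, nothing is read from these counts.

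Fatty acid elongation is the task of Elovl3, which extends saturated and monounsaturated acyl chains. Elovl3 measured 109, 56.96, 46.1 and 23.9 CPM in control mice 1 to 4, in that order, as in the lists that follow. MKO mice had 10.8, 22.6, 22.8 and 16.4 CPM, EKO mice 50.1, 144, 169.8 and 160.0 CPM and EMdKO mice 90.2, 129, 234 and 102 CPM. Every MKO mouse lay below every other mouse of the study, and EKO mice 2 to 4 and EMdKO mice 2 and 3 lay above all controls. The log2 fold change against control was -1.70 ± 0.46 (SE) in MKO, 1.15 ± 0.44 in EKO and 1.24 ± 0.44 in EMdKO.

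Within the controls, but in none of the other groups, the order of Elovl3 was that of the hair shaft and inner root sheath markers. The mean log2 CPM of the 14 measured hair markers (of 15 listed) was 10.64, 7.67, 5.75 and -1.49 in control mice 1 to 4. Their summed level was 7 to 42500 CPM over the control mice, 66.9 to 7820 CPM over EKO mice, 3.45 to 608 CPM over MKO mice and 6.09 to 8510 CPM over EMdKO mice. Markers at 0 counts in at least 1 mouse numbered 10 among control mice, 1 among EKO mice, 12 among MKO mice and 10 among EMdKO mice. With this score as a covariate, the Elovl3 difference in MKO was -0.95 ± 0.48, and those in EKO and EMdKO were 1.45 ± 0.40 and 1.73 ± 0.44. Across the 16 libraries Elovl3 had a Pearson r of 0.41 with the hair score. EKO mouse 1, with the highest score of its group (7.68), had the least Elovl3 of that group. EKO mouse 4, with the lowest score (1.48), had 160 CPM. MKO mouse 4 had the highest score of its group (3.66) but not the most Elovl3. EMdKO mouse 3 had both the highest score (7.59) and the most Elovl3 of its group. Beyond the covariate fit, the part of hair growth in the Elovl3 values was not tested.

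Desaturation, the introduction of a double bond by stearoyl-CoA desaturases, gave unlike patterns for its pair of genes. Scd3 measured 108, 434, 609 and 593 CPM in the control mice. EKO mice had 162, 804, 558 and 1069 CPM, MKO mice 93.1, 510.3, 404 and 327 CPM and EMdKO mice 998, 793, 575 and 643 CPM. Mouse 1 was lowest in control, EKO and MKO, and all knockout groups overlapped the controls, with log2 fold changes of 0.57 ± 0.56 in EKO, -0.39 ± 0.56 in MKO and 0.79 ± 0.56 in EMdKO.

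Scd1, the main desaturase of skin and fat, measured 1342, 6851, 3546 and 3084 CPM in the control mice. EKO mice had 3557, 2283, 2411 and 2879 CPM, MKO mice 5856, 2683, 1846 and 4040.0 CPM and EMdKO mice 4421, 7426, 6679 and 2361 CPM. No group stood apart (-0.41 ± 0.46 for EKO, -0.04 ± 0.46 for MKO and 0.49 ± 0.46 for EMdKO), and without control mouse 2 the EKO value was 0.07. The mean log2 CPM of the 10 adipocyte markers was highest in MKO mouse 1 (8.60), the MKO mouse with most Scd1, and lowest among the controls in control mouse 1 (6.76), the control with least. Summed, the adipocyte markers came to 3370 to 8140 CPM over the control mice, 2960 to 8290 CPM over EKO mice, 5330 to 12000 CPM over MKO mice and 5150 to 6520 CPM over EMdKO mice, and none was at 0 in any library. Across the 16 libraries Scd1 had a Pearson r of 0.10 with the mean of the other 9 genes and 0.70 with the adipocyte markers. The part of fat in the Scd1 values was not tested.

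Hydroxylation of fatty acids by fatty acid 2-hydroxylase, the product of Fa2h, feeds the sphingolipids and sebum lipids of skin. Fa2h measured 112, 346, 223 and 219 CPM in the control mice and 97.97, 123, 152 and 162 CPM in the MKO mice. It reached 122, 604, 505 and 728 CPM in EKO mice and 572, 421, 1387 and 349 CPM in EMdKO mice. Every EMdKO mouse lay above every control, and so did EKO mice 2 to 4, while EKO mouse 1 lay near the lowest control. The log2 fold change was 1.12 ± 0.49 for EKO, -0.75 ± 0.49 for MKO and 1.60 ± 0.50 for EMdKO, and 0.99 ± 0.45 for EMdKO without mouse 3, its highest.

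Fatty alcohols are made by fatty acyl-CoA reductases such as the product of Far2. Far2 measured 33.4, 84, 99.9 and 88.8 CPM in the control mice and 29.3, 56.4, 62.4 and 44.8 CPM in the MKO mice. EKO mice had 32.9, 262, 193 and 189 CPM and EMdKO mice 149, 128, 276 and 116 CPM. All EMdKO mice and EKO mice 2 to 4 again lay above the controls. The log2 fold change was 1.14 ± 0.48 for EKO, -0.67 ± 0.48 for MKO and 1.12 ± 0.48 for EMdKO.

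Wax esters are formed when an acyl-CoA wax alcohol acyltransferase joins alcohol and acid, and its genes Awat1 and Awat2, whose sequences are shown above, gave different patterns. Awat1 measured 3.84, 6.04, 14.9 and 10.2 CPM in the control mice and 4.39, 9.099, 7.27 and 3.64 CPM in the MKO mice. EKO mice had 4.33, 57.9, 36.5 and 32.8 CPM and EMdKO mice 24.1, 28.8, 35.1 and 19.6 CPM, so that all EMdKO mice and EKO mice 2 to 4 were above the controls. Its log2 fold change of 1.90 ± 0.56 was the largest of the 10 genes in EKO, beside 1.61 ± 0.55 for EMdKO and -0.53 ± 0.57 for MKO. Awat2 measured 2.97, 3.02, 13.9 and 12.1 CPM in the control mice and 2.06, 28.5, 10.9 and 9.59 CPM in the EKO mice. MKO mice had 2.19, 11.6, 7.51 and 5.52 CPM and EMdKO mice 8.62, 7.63, 10.2 and 5.67 CPM. The EMdKO mice lay within the control range for Awat2 (-0.01 ± 0.64), and its EKO value of 0.67 ± 0.64 was -0.11 without EKO mouse 2.

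Mgst1, whose enzyme conjugates glutathione and reduces lipid peroxides, had the smallest errors. It averaged 228 ± 21.9 CPM in control mice, 263 ± 86.3 CPM in EKO mice, 209.8 ± 16.8 CPM in MKO mice and 306 ± 76.5 CPM in EMdKO mice, with log2 fold changes against control of 0.20 ± 0.21 for EKO, -0.12 ± 0.21 for MKO and 0.42 ± 0.21 for EMdKO. EKO mouse 4 had 389.6 CPM where the other EKO mice had 196 to 237 CPM, and without it the EKO value was -0.05. The EMdKO mice measured 246, 391, 349.5 and 237 CPM and overlapped the controls at 202 to 248 CPM.

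Mc5r encodes the melanocortin receptor through which pituitary peptides act on sebaceous secretion. It averaged 19.4 ± 6.74 CPM in control mice, 23.7 ± 6.53 CPM in EKO mice, 14.3 ± 6.03 CPM in MKO mice and 23.9 ± 10.8 CPM in EMdKO mice, and all groups overlapped. Its order in the controls (27, 22.4, 16.8 and 11.5 CPM) was that of the hair markers, as for Elovl3. The MKO difference of -0.43 ± 0.35 was 0.19 ± 0.32 with the hair score as a covariate, and the EKO and EMdKO differences of 0.28 ± 0.35 and 0.30 ± 0.35 were 0.44 ± 0.27 and 0.70 ± 0.29. EMdKO mouse 3, with the highest Mc5r of all mice at 39.4 CPM, also had the highest hair score of its group (7.59).

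Krt79 marks the cells of the sebaceous duct and of the funnel-shaped upper follicle. Krt79 measured 782, 592, 1020.0 and 896 CPM in the control mice and 231, 846, 676 and 578 CPM in the MKO mice. EKO mice had 632, 1963, 1650.0 and 1498 CPM and EMdKO mice 1526, 1556, 1359 and 1228 CPM. The EMdKO mice lay close together and above every control, and the EKO mice did so except mouse 1. The log2 fold change was 0.80 ± 0.35 for EKO, -0.50 ± 0.35 for MKO and 0.79 ± 0.35 for EMdKO.

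**Figure D2:**
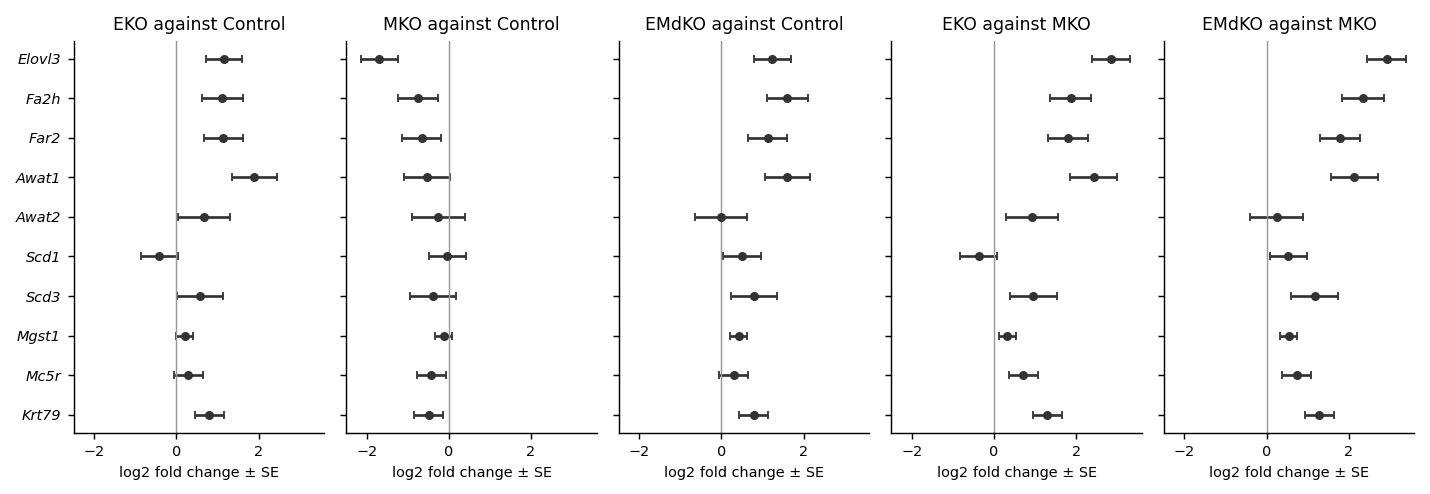
Log2 fold change (horizontal axes) with its SE (whiskers) for each of the 10 genes in 5 comparisons, from the fit of all 16 libraries. Against control the EKO and EMdKO panels lean right and the MKO panel left, and Elovl3 has the largest values against MKO, 2.85 in EKO and 2.93 in EMdKO.

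Counted over the 10 genes, 4 were higher in EMdKO than in control without overlap (Fa2h, Far2, Awat1 and Krt79), where 2.23% of all genes were higher and 1.45% lower in this way. In EKO 0 were free of overlap (all genes, 1.03% higher and 1.23% lower), and in MKO Elovl3 was lower (1.37% higher and 1.71% lower). Against MKO, 7 of 10 were higher in EMdKO without overlap, all but Scd1, Awat2 and Mc5r (3.71% higher and 2.28% lower). In EKO against MKO Elovl3 alone was (5.15% higher and 5.16% lower). The list was picked on these groups, so the shares are given without a reading.

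For Elovl3, Awat1, Fa2h, Far2 and Krt79, which averaged lower in MKO than in control, the contrasts against MKO gave larger differences than those against control. For Scd1 in EKO the difference was -0.37 against MKO and -0.41 against control. Elovl3 differed by 2.85 ± 0.47 in EKO and by 2.93 ± 0.47 in EMdKO, Awat1 by 2.42 ± 0.57 and 2.13 ± 0.57, and Fa2h by 1.87 ± 0.50 and 2.35 ± 0.51. Far2 differed by 1.81 ± 0.49 and 1.79 ± 0.49 and Krt79 by 1.30 ± 0.36 and 1.28 ± 0.36. In EKO against MKO the fit over all genes placed 1 of the 10, Elovl3, past the threshold, where 0.653% of all genes were called higher and 0.205% lower (0.858% in all). That number was 0 without EKO mouse 2 or 3 or MKO mouse 1 or 3, and nothing is read from it, since the gene was picked on these libraries. In EMdKO against MKO 0 members were called, where the edgeR test called 0% of all genes higher and 0.00734% lower (0.00734% in all). At an unadjusted p under 0.05 the members numbered 5 in EKO (16.9% of all genes) and 6 in EMdKO (7.42%). DESeq2 called 5 members in each of these contrasts, among 623 genes called in EKO and 142 in EMdKO. Limma-voom called 5 in EKO among 1591 genes and 1 in EMdKO among 8 genes.

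EMdKO and EKO mice overlapped for all 10 genes. The log2 fold changes of EMdKO against EKO ran from -0.68 ± 0.63 for Awat2 to 0.91 ± 0.46 for Scd1, with a median of 0.05. Without overlap, 2.86% of all genes were higher and 2.71% lower there. The edgeR test called 0.0147% of all genes higher and 0% lower (0.0147% in all), and 0 members were called by it, by DESeq2 or by limma-voom. At an unadjusted p under 0.05 were 0 members and 6.59% of all genes.

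Single mice had much weight, EKO mouse 1 above all. It was lowest of its group in 8 of 10 genes and highest in Scd1 and Mc5r. EKO mice 2 to 4 all lay above every control in 5 genes (Elovl3, Fa2h, Far2, Awat1 and Krt79). EKO mouse 1 also had the highest Zc3h12a of its group, 11.7 CPM where the other EKO mice had 7.07 to 8.41 CPM and the controls 19.4 to 30.3 CPM. Its tissue make-up stood apart as well. The mean log2 CPM of muscle markers was 12.68 in EKO mouse 1 and 11.23 to 11.99 in the other EKO mice, that of adipocyte markers 7.82 and 6.33 to 6.97, and that of hair markers 7.68 and 1.48 to 5.87. Basal keratinocyte markers were at 9.44 in EKO mouse 1 and 10.06 to 10.24 in the other EKO mice. The part of any of these in its gland values was not tested. Without EKO mouse 1, the log2 fold changes in EKO against control were 2.26 ± 0.40 for Awat1, 1.49 ± 0.36 for Far2, 1.44 ± 0.42 for Fa2h, 1.42 ± 0.41 for Elovl3 and 1.05 ± 0.32 for Krt79. The mouse was singled out by its low levels in these same genes, so the values describe the other EKO mice and test nothing.

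**Figure D3:**
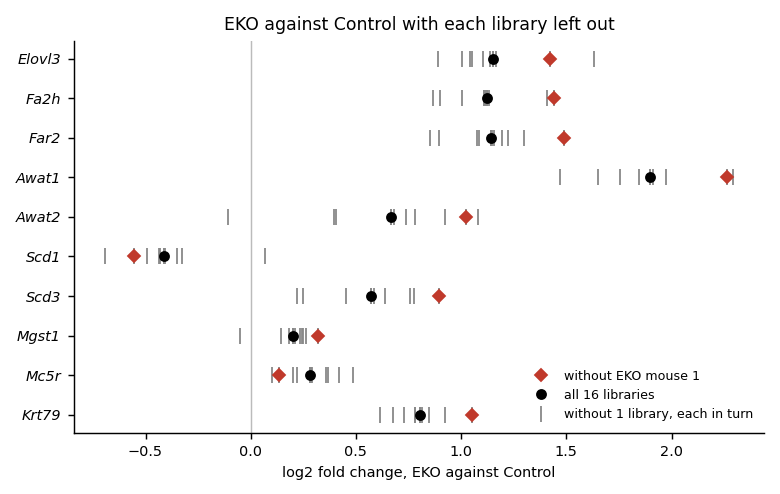
Log2 fold change of each gene in EKO against control (horizontal axis) in the fit of all libraries (black circle), without EKO mouse 1 (red diamond) and without each other library (grey ticks). Awat1, Far2, Fa2h, Elovl3 and Krt79 stay to the right of 0 throughout, while Awat2, Scd1 and Mgst1 cross it.

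Control mouse 1 and MKO mouse 1 were low as well. Ranking each gene over the 16 libraries from low to high, the median rank of the 10 genes was 1 in MKO mouse 1, 3 in control mouse 1 and 3 in EKO mouse 1, and 10 or higher in EKO mice 2 to 4 and all EMdKO mice. MKO mouse 1 had the highest level of skeletal muscle markers, a mean log2 CPM of 13.51 over 8 genes, beside 11.64 to 12.29 in the rest of its group. Summed, the muscle markers came to 25200 to 44300 CPM over the control mice, 21800 to 61600 CPM over EKO mice, 32100 to 103000 CPM over MKO mice and 22200 to 52800 CPM over EMdKO mice, and none was at 0. In MKO against control 8 of 8 muscle markers had positive log2 fold changes (median 0.51) where 10 of 10 gland genes had negative ones. Over the 16 libraries, r with the muscle score lay between -0.69 and -0.44 for 8 of the 10 genes and was -0.03 for Mgst1 and 0.44 for Scd1, as a description. Control mouse 1 had the highest hair score and the lowest basal keratinocyte score (9.28 over 7 genes) of all libraries. The part of these tissue differences in the gland values was not tested.

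Markers of the suprabasal epidermis varied with most of the gland genes across the libraries, with r from 0.47 to 0.89 for 8 of the 10 but -0.18 for Scd1 and 0.28 for Mc5r. The 6 measured suprabasal keratinocyte markers (of 7 listed) had a mean log2 CPM of 9.53 to 10.24 in control, 9.26 to 9.77 in MKO and 9.87 to 10.85 in EMdKO. EKO mice 2 to 4 had 11.24, 11.06 and 11.23, and EKO mouse 1, the one with low gland genes, 9.41. Their summed level was 6940 to 13400 CPM over the control mice, 7860 to 25200 CPM over EKO mice, 6850 to 10800 CPM over MKO mice and 9440 to 16200 CPM over EMdKO mice, and none was at 0. Of the 6, 6 had positive log2 fold changes in EKO and 6 in EMdKO (medians 0.85 and 0.47), where 45.8 and 47.1% of all genes did. In the edgeR quasi-likelihood test 0 passed the threshold over all genes in EKO or EMdKO against control. At an unadjusted p under 0.05 were 3 and 1 of them, and 6.9 and 8.16% of all genes. In EKO against MKO that test called 1 of the 6 higher, where 0.653% of all genes were. There 5 of the 6 had an unadjusted p under 0.05, where 16.9% of all genes did. In MKO against control 3 of 6 were positive (median -0.13), where the gland genes were all negative. The 7 basal markers had medians of -0.06 in EKO and 0.32 in EMdKO. How much epidermis in the tissue piece adds to the gland values was not tested.

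**Figure D4:**
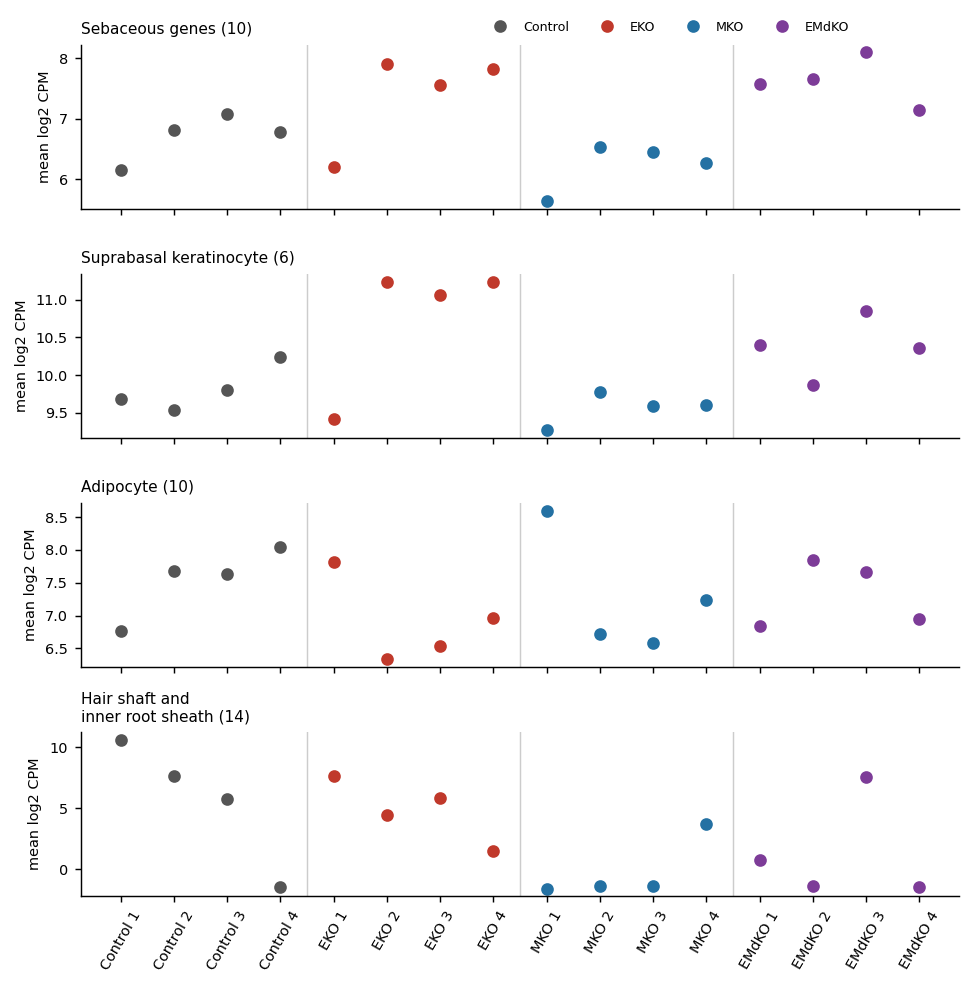
Mean log2 CPM (vertical axes) of the 10 sebaceous genes and of the suprabasal keratinocyte, adipocyte and hair markers in each of the 16 libraries (horizontal axis), coloured by group. EKO mouse 1 lies below EKO mice 2 to 4 in the panels of sebaceous and suprabasal genes.

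Across the 16 libraries the genes did not form one block. Far2 (Pearson r = 0.95), Fa2h (0.94), Awat1 (0.90) and Krt79 (0.84) followed the mean of the other 9 genes most closely, then Scd3 (0.78), Elovl3 (0.76), Mgst1 (0.69) and Awat2 (0.56). Mc5r (0.35) and Scd1 hardly did. With the group means taken out, r was 0.90 for Far2, 0.87 for Fa2h and 0.80 for Awat1, so these genes also ran together between mice of the same group, and it was 0.43 for Elovl3 and -0.05 for Mc5r. The values describe 16 libraries that share depth and tissue differences and carry no p.

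The genes outside the list whose levels were most like the mean of the 10, among 11980 genes with a mean log2 CPM of at least 1, were AAdacl4fm3 (r = 0.98), Tmem164 (r = 0.97), Elovl5 (r = 0.97), Elovl4 (r = 0.97), Sgpp2 (r = 0.96) and Acox2 (r = 0.95). Elovl4 and Elovl5 encode further fatty acid elongases, Sgpp2 a sphingosine-1-phosphate phosphatase and Acox2 a peroxisomal acyl-CoA oxidase. With group means taken out, r lay between 0.91 and 0.95. Acox2 measured 8.05, 8.77, 15.4 and 11.5 CPM in the control mice and 6.92, 54.1, 32.6 and 32.8 CPM in the EKO mice, the same split of EKO mouse 1 from the rest of its group. These 6 genes were picked by their likeness to the 10 over the same libraries. Their differences between groups follow in part from that choice and are described, not taken as evidence. None of these 6 genes passed the threshold against control in any knockout. Sgpp2 was higher in EKO than in MKO by 2.99 ± 0.68 (edgeR test, adjusted p = 0.0498). It missed the threshold when any 1 library other than control mouse 1 or EKO mouse 1 was left out (adjusted p from 0.055 to 0.167). The fit to the contrasted groups only (adjusted p = 0.0945) and the one with the hair score (adjusted p = 0.0643) missed it too. Sgpp2 passed with DESeq2 (adjusted p = 0.00194) and limma-voom (adjusted p = 0.00749). With edgeR it also passed with RLE scaling, no filter, a CPM of 1 in 4 libraries or a block for the mouse number (adjusted p from 0.0303 to 0.0496).

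The rest of the lipid pathway was read from 7 lists of other genes, 96 in all, of which 91 were measured and 86 tested. These lists were also drawn up with earlier results of these data known, and most genes named from them below were picked by smallest p. Their counts and shares are therefore a description and not independent evidence. Of the 86, 64 were positive in EKO (74.4%), 69 in EMdKO (80.2%) and 26 in MKO (30.2%), with medians of 0.23, 0.29 and -0.08. Over all genes tested, 45.8, 47.1 and 50.2% were positive in EKO, EMdKO and MKO, the shares to set beside each list below as well. Against control, 0 of 86 passed in EKO, MKO or EMdKO in the edgeR test, and 23, 9 and 20 had an unadjusted p under 0.05, where 6.9, 9.58 and 8.16% of all genes did. DESeq2 and limma-voom called 0 of them too. In EMdKO 18 of 86 lay above all controls and 0 below them (all genes, 2.23 and 1.45%), and in MKO 1 lay above and 8 below (all genes, 1.37 and 1.71%).

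**Figure D5:**
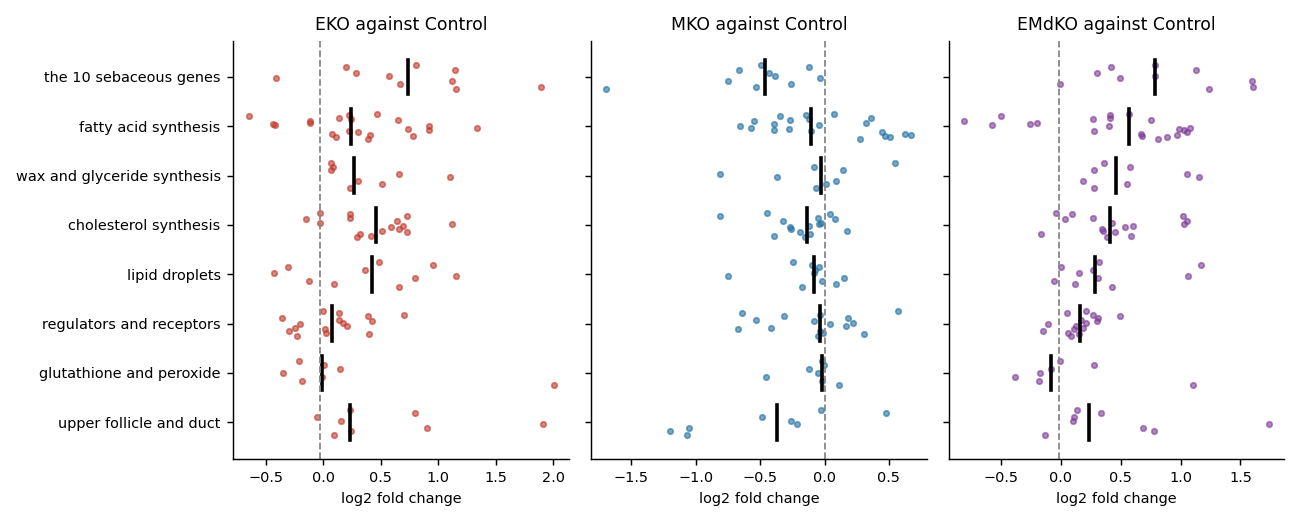
Log2 fold change against control (horizontal axes) of each tested gene (points) in the 10 sebaceous genes and 7 pathway lists; black bars are list medians and the dashed line is the median of all 13633 genes. In EKO the medians run from -0.01 (glutathione and peroxide enzymes) to 0.73 (the 10 genes).

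Fatty acid synthesis genes were positive in 16 of 21 in EKO (median 0.24), in 16 of 21 in EMdKO (0.57) and in 9 of 21 in MKO (-0.11). Hsd17b12, the ketoacyl reductase of chain elongation, measured 159, 138, 153 and 127 CPM in the control mice. EKO mice had 125, 243, 259 and 281 CPM and EMdKO mice 194, 269.9, 299 and 211 CPM. All EMdKO mice lay above all controls (0.75 ± 0.21, adjusted p = 0.358). The elongase gene Elovl5 had 0.74 ± 0.29 in EKO (adjusted p = 0.658) and 0.99 ± 0.29 in EMdKO (adjusted p = 0.358).

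Wax and glyceride synthesis genes were positive in 8 of 8 in EKO (median 0.27), in 8 of 8 in EMdKO (0.46) and in 4 of 8 in MKO (-0.03). Soat1, which esterifies cholesterol, measured 52.1, 68.04, 43.2 and 38.98 CPM in the control mice and 20.9, 27.9, 30.03 and 36.3 CPM in the MKO mice, each of them below every control (-0.81 ± 0.41, adjusted p = 0.551). Dgat1, which makes triglyceride, had 0.51 ± 0.21 in EKO (adjusted p = 0.68) and 0.55 ± 0.21 in EMdKO (adjusted p = 0.5).

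Cholesterol synthesis genes were positive in 13 of 16 in EKO (median 0.46), in 14 of 16 in EMdKO (0.41) and in 3 of 16 in MKO (-0.14). Msmo1, a sterol methyl oxidase, had 1.12 ± 0.39 in EKO (adjusted p = 0.597) and 1.03 ± 0.39 in EMdKO (adjusted p = 0.479). Hsd17b7, a sterol keto-reductase, had 0.64 ± 0.34 in EKO (adjusted p = 0.747) and 1.05 ± 0.34 in EMdKO (adjusted p = 0.433). Both overlapped the controls in EKO and lay above them in every EMdKO mouse.

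Lipid droplet genes were positive in 7 of 10 in EKO (median 0.43), in 8 of 10 in EMdKO (0.29) and in 2 of 10 in MKO (-0.08). Mgll, a monoglyceride lipase, measured 24.6, 45.9, 47 and 49.98 CPM in the control mice and 65.4, 87.1, 147 and 76.5 CPM in the EMdKO mice, without overlap (1.17 ± 0.35, adjusted p = 0.359). Plin2, which encodes a droplet coat protein, had 0.66 ± 0.22 in EKO (adjusted p = 0.581) and 0.43 ± 0.22 in EMdKO (adjusted p = 0.653).

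Regulators and receptors were positive in 10 of 16 in EKO (median 0.08), in 14 of 16 in EMdKO (0.16) and in 6 of 16 in MKO (-0.04). Pparg, the nuclear receptor of sebocyte differentiation, averaged 31.9 ± 8.96 CPM in control mice, 27.1 ± 5.27 CPM in EKO mice, 30.9 ± 18.1 CPM in MKO mice and 33.8 ± 13.99 CPM in EMdKO mice. Scap, the sterol-sensing escort of sterol regulatory factors, had 0.70 ± 0.23 in EKO (adjusted p = 0.568). Insig2, which retains the escort and its factors, had -0.64 ± 0.22 in MKO (adjusted p = 0.355).

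Glutathione and peroxide enzyme genes were positive in 3 of 7 in EKO (median -0.01), in 2 of 7 in EMdKO (-0.08) and in 1 of 7 in MKO (-0.02). Mgst2, a relative of Mgst1 at 0.831 CPM on average in control and 3.39 CPM in EKO, had 2.00 ± 0.52 in EKO (adjusted p = 0.363). Its counts were low, 3 to 11 in the control mice. EKO mice had 0.929, 7.42, 3.64 and 1.58 CPM, so mouse 2 weighed most in the EKO mean. Gsta4, which detoxifies lipid aldehydes, had -0.46 ± 0.35 in MKO (adjusted p = 0.717).

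Genes of the upper follicle and sebaceous duct, where Krt79 is made, were positive in 7 of 8 in EKO (median 0.23), in 7 of 8 in EMdKO (0.24) and in 1 of 8 in MKO (-0.37). In MKO 4 of these 8 lay below all controls, where 1.71% of all genes did. Cst6, a cysteine protease inhibitor of cornified cells, measured 440.5, 429, 468 and 351 CPM in the control mice and 112, 305, 249 and 148 CPM in the MKO mice. EKO mice had 249, 1323, 915 and 662 CPM and EMdKO mice 827, 540.3, 795 and 559 CPM. It rose in EKO against MKO by 1.95 ± 0.40 (edgeR test, adjusted p = 0.0371), although EKO mouse 1 overlapped the MKO mice. Cst6 was the 1 gene of the 86 called in any contrast, where 0.858% of all genes were called in this one. The call held in 13 of 24 alternatives, with adjusted p from 8.17e-05 to 0.134. It was lost without EKO mouse 2, 3 or 4 (adjusted p = 0.134, 0.127 and 0.0714), without any 1 MKO mouse (adjusted p from 0.0563 to 0.0982) and without EMdKO mouse 1 or 4 (adjusted p = 0.057 and 0.0501). The fit to the contrasted groups only (adjusted p = 0.0865) and the one with the hair score (adjusted p = 0.0657) lost it too.

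Defb6, a beta-defensin gene on that list, had 1.91 ± 0.56 in EKO (adjusted p = 0.462) and 1.74 ± 0.56 in EMdKO (adjusted p = 0.433). It measured 4.46 to 6.497 CPM in the control mice and 4.75, 42.7, 19.1 and 21.1 CPM in the EKO mice. Krt17, a follicle and stress keratin gene, had -1.07 ± 0.32 in MKO, with each MKO mouse below all controls (adjusted p = 0.331).

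Without EKO mouse 1, the edgeR test over all genes placed 127 genes past the threshold in EKO against control. The fit of all libraries had called 0 of 13633 genes there. Among the 127 were 1 of the 10 members, Awat1, and 7 of the 86 pathway genes. The 7 were Hsd17b12, Elovl4, Elovl7, Msmo1, Cidea, Mgst2 and Defb6 (edgeR test, adjusted p from 0.0147 to 0.0418). That mouse was singled out by its low gland genes, so these numbers depend on the outcome and describe the remaining mice. Elovl7, an elongase gene, is named after its values were seen. Then Hsd17b12 had 0.85 ± 0.16, Msmo1 1.43 ± 0.29 and Mgst2, at the low counts given above, 2.32 ± 0.44. Cidea, which encodes a lipid droplet protein of sebocytes, averaged over all libraries 8.15 ± 2.99 CPM in control mice, 18.2 ± 10.5 CPM in EKO mice, 4.83 ± 1.81 CPM in MKO mice and 17.1 ± 4.43 CPM in EMdKO mice.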

How the data were processed

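Whole skin of 16 mice was compared, 4 in each group, with group and mouse number taken from the sample titles in the labels. The names of the deposited MKO and EMdKO files carry numbers 1 higher than those titles, and the titles were used. The authors deposited raw read counts per targeted transcript, from Ion AmpliSeq libraries per the labels' protocols. The submitters' processing notes name HTSeq 0.6.0 and DESeq2 1.18.1. No aligner, build or annotation is stated in the material at hand. The 5 HTSeq summary lines (3.111 to 5.252% of reads) were left out. Symbols were assigned to 22562 of 23930 targets, 22452 through the RefSeq table and 110 through GENCODE.

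A model with 1 mean per group was fitted to the counts by edgeR 4.0.16 under R 4.3.3 (quasi-likelihood test, TMM scaling, default filter on low counts), over 13633 genes with 12 residual degrees of freedom and a biological coefficient of variation of 0.31. Genes were called at a Benjamini-Hochberg adjusted p under 0.05 over all genes in each of 6 contrasts. The SE of a fold change is the change divided by the square root of F. Log2 CPM used a prior count of 2. The 10 members, the other lists and the naming rule were chosen with earlier results of these data known. Of each pathway list, called genes were named (up to 6), or the 2 of smallest p where fewer than 2 were called, as were the 6 genes most like the members. Cidea and Pparg stood on the list of gland markers. Alternatives were DESeq2 1.42.0, limma-voom with quality weights (limma 3.58.1), RLE scaling, no filter, a CPM of 1 in 4 libraries, a fit to the contrasted groups only, a block for the mouse number, the hair score as a covariate, and leaving out each library. The pipeline was tested on simulated data. Coding sequences were aligned with Biopython 1.88. Idi1, Fdps, Gstp1, Gpx4, Prdx1, Krt86 and Dsg1a were not analysed here.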

Additional observations from a re-analysis of the deposited data

How the results depend on the processing

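Of 1440 fold changes of the 10 genes under the alternatives, 1394 kept their sign and 2 moved by over 1 SD between mice, those of Elovl3 (-0.95) and Mc5r (0.19) in MKO against control with the hair score as a covariate. Numbers of called genes are given in the order EKO, MKO and EMdKO against control, EMdKO against EKO, EMdKO against MKO and EKO against MKO. Over all genes they were 0, 4, 4, 2, 1 and 117 as reported, 59, 109, 73, 9, 142 and 623 with DESeq2, 4, 0, 8, 2, 8 and 1591 with limma-voom, 3, 4, 4, 2, 9 and 149 without a filter, 0, 1, 10, 3, 90 and 102 with the contrasted groups only and 0, 1, 5, 3, 2 and 39 with the hair covariate. Of the 10 members they were 0, 0, 0, 0, 0 and 1 as reported, 0, 1, 0, 0, 5 and 5 with DESeq2, 0, 0, 0, 0, 1 and 5 with limma-voom, 0, 0, 0, 0, 1 and 2 without a filter, 0, 0, 0, 0, 4 and 1 with the contrasted groups only and 0, 0, 0, 0, 1 and 1 with the hair covariate. Of the 86 pathway genes they were 0, 0, 0, 0, 0 and 1 as reported, 0, 0, 0, 0, 12 and 19 with DESeq2, 0, 0, 0, 0, 0 and 32 with limma-voom, 0, 0, 0, 0, 0 and 5 without a filter, 0, 0, 0, 0, 0 and 2 with a CPM of 1 in 4 libraries, 0, 0, 0, 0, 7 and 0 with the contrasted groups only and 0, 0, 0, 0, 0 and 0 with the hair covariate. Leaving out 1 library gave 0 to 127, 1 to 5, 2 to 40, 1 to 3, 1 to 95 and 8 to 510 genes, 0 to 1, 0 to 0, 0 to 0, 0 to 0, 0 to 4 and 0 to 5 members and 0 to 7, 0 to 0, 0 to 1, 0 to 0, 0 to 10 and 0 to 26 pathway genes. The highest gene counts in EKO against control, EMdKO against control, EMdKO against MKO and EKO against MKO came without EKO mouse 1. With the mouse number as a replicate block, EKO against MKO had 46 genes and 2 pathway genes called. Over all genes, same-numbered mice of different groups did not deviate together in every pair (r from -0.543 to 0.61 over 24 pairs, 7 above 0.1). Mice of unlike number in different groups gave a similar range, r from -0.717 to 0.574. Of 16 libraries, 5 correlated best with their own number. In the 10 members mouse 1 was lowest of its group in 7 genes in control, 8 in EKO and 7 in MKO. In EMdKO, however, it was lowest in 1 gene, and mouse 4 in 8. The causes were not tested. With 4 mice a group, differences near the SEs cannot be seen.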
